A study of Mus musculus with 6 samples.

Results

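The 10 genes described here encode the cholesterol exporters ABCA1 and ABCG1, both liver X receptors (LXR) and 6 proteins whose genes LXR is known to control. They were picked by symbol, with earlier results of these data known. All 10 were found among the 41388 genes of each table and passed the filter on low counts, which left 11303 genes. RNA had been sequenced from macrophages of the aortic intima of C57BL/6 mice lacking ApoE, a strain whose arteries form cholesterol-rich plaques. The series design gives 6 mice, 28 weeks of Western diet and 3 libraries per population. Foamy cells were live, CD64+ and CD11b+ with high side scatter and a high signal of BODIPY493/503, which stains neutral lipid. Non-foamy cells had the same surface markers and were low in both. Both populations therefore share the ApoE deficiency, the diet and the digestion of the tissue, and no ApoE-sufficient or chow-fed library was analysed here. The labels give neither the age of the mice nor how the mice were divided among libraries, so the p-values reflect the spread of these libraries alone, and this spread may be technical.

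LXR alpha and LXR beta are nuclear receptors that pair with the retinoid X receptor (RXR) and are switched on by oxysterols and some precursors of cholesterol. In macrophages that take up lipoprotein cholesterol, they are known to raise the genes that move cholesterol out of the cell, and also genes of fatty acid desaturation and phospholipid remodelling. Excess sterol at the same time holds back SREBP-2, the factor that drives cholesterol synthesis and uptake. ABCA1 hands cholesterol and phospholipid to lipid-poor apolipoprotein A-I, and ABCG1 passes cholesterol to high-density lipoprotein particles.

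The promoters of Abca1 and of the Srebf1 transcript that encodes SREBP-1c carry textbook LXR elements. They are printed here because they show the letters through which LXR is known to act on a gene that rose in these data (Abca1) and on one that did not pass the test (Srebf1). Sequences are the 250 bases before a RefSeq transcript start, on GRCm38.p6, 5′ to 3′ on the gene's strand. Capitals mark the pair of 6-base repeats of the element, which reads GGGTTA, 4 bases of any kind and CGGTCA on the opposite strand.
Abca1, chr4:53159896-53160145, minus strand: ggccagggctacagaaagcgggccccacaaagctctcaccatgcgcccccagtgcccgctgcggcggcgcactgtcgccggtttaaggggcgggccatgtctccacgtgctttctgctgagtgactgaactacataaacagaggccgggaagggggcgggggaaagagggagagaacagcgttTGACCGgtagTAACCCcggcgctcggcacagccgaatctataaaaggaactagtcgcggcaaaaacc
Srebf1, chr11:60210472-60210721, minus strand: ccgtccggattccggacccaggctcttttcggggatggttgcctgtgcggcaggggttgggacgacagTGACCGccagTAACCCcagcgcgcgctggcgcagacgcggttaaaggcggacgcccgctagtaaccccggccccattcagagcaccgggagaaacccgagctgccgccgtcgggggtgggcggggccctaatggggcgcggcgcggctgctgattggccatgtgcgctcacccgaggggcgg
In Abca1 the element began 67 bases before the start, and in Srebf1 182 bases before the start of the innermost of 3 transcripts listed. Neither stretch overlapped an exon of its gene in the deposited tables.

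RefSeq windows of 300 bases, 250 before and 50 after a start, were at hand for 7 of the 10 genes, as 10 windows. Abcg1, Scd1 and Scd2 had none. With at most 1 mismatch in the 12 letters and on both strands, GGGTTA, 4 bases and CGGTCA was found in 2 of these 10 windows and in 14 (0.0426%) of all 32851. The letters were taken from these very elements, so the matches are a description. The general form of the element, AGGTCA, 4 bases and AGGTCA with at most 2 mismatches, was in 0 of the 10 windows and in 3.02% of all windows. The elements printed above differ from this form in more than 2 letters, so this search could not find them. No match says only that these letters are not in this window.

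Total counts in genes ran from 15628627 to 24619075 per library. The number of genes with at least 1 count ran from 15595 to 17757 in the foamy and from 19380 to 24701 in the non-foamy libraries, with the highest value in non-foamy replicate 1. All 9 macrophage markers were measured. Of these Cd68 and Lyz2 rose in foamy libraries and Itgam, Adgre1 and Csf1r fell, Itgam being the gene of CD11b. Monocyte markers summed to 156 to 240 CPM in the foamy and to 699 to 950 CPM in the non-foamy libraries, and 5 of 8 tested fell. Genes that tissue digestion can induce summed to 2390 to 2950 CPM in the foamy and 5410 to 7740 CPM in the non-foamy libraries, and 13 of 16 fell. Dendritic cell markers, mainly Cd209a, summed to 0.38 to 16.1 CPM in the foamy and 33.5 to 256 CPM in the non-foamy libraries, and Cd209a, the 1 tested, was called lower by DESeq2 but not by edgeR (adjusted p = 0.28) or limma-voom. T and NK cell markers summed to 17.1 to 22.2 CPM in the foamy and 0.704 to 3.63 CPM in the non-foamy libraries, and both tested, Cd4 and Klrb1c, rose. The untested markers of this list were sparse and went both ways, with 14 counts over the foamy and 0 over the non-foamy libraries for Cd3g, 18 and 2 for Nkg7, 3 and 28 for Cd3d, 1 and 23 for Trac, 2 and 1 for Cd8a and 0 and 1 for Cd3e. Neutrophil markers summed to 1.56 to 3.72 CPM in the foamy and 1.38 to 32.9 CPM in the non-foamy libraries. Of 2 tested, S100a9, with 1 count over the foamy and 399 over the non-foamy libraries, was called lower by edgeR (adjusted p = 0.0077) and DESeq2 but not by limma-voom, and S100a8 was not called. For the B cell, smooth muscle, endothelial and fibroblast lists, edgeR, DESeq2 and limma-voom called 0 tested genes, and by edgeR 0 had an unadjusted p under 0.05. The part of these lists in the differences below was not tested. CPM here and below are read counts scaled to library size after TMM normalization, which assumes that most genes do not change.

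Of the 10 genes, 5 rose in foamy libraries, namely Pltp, Nr1h3, Scd1, Scd2 and Abca1, and 0 fell. At the same edgeR threshold, an adjusted p of 0.05, 5.41% of all 11303 genes tested were called, 2.50% higher and 2.90% lower. At an unadjusted p under 0.05, 7 were higher and 0 lower, and DESeq2 and limma-voom called 6 and 5 higher and also 0 lower. Over all genes, DESeq2 called 528 higher and 645 lower, and limma-voom called 279 higher and 259 lower. The share of all genes at the unadjusted threshold is not given here, nor for the lists below. After TMM normalization, the 3 foamy values stood above all 3 non-foamy values in 6 of the 10, the 5 named and Abcg1, against 12.4% of all genes tested. The median log2 fold change of the 10 was 1.02, foamy over non-foamy, beside -0.04 over all genes tested. All 10 estimates were above 0, against 5336 of all 11303 genes tested. But with total counts as the only scaling, which moved the median of all genes to -0.31, Nr1h2, Srebf1 and Lpcat3 came out below 0. The 10 genes were chosen with earlier results of these data known, so these comparisons with all genes are a description and no test. In bulk RNA, fewer cells that express a gene and less of its RNA per cell cannot be told apart.

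The number of these genes that rose was 3 with total counts as the only scaling and 2 without foamy replicate 2 or without foamy replicate 3. It was 3 without non-foamy replicate 2. Pltp and Nr1h3 were called in all of these fits.

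**Figure D1:**
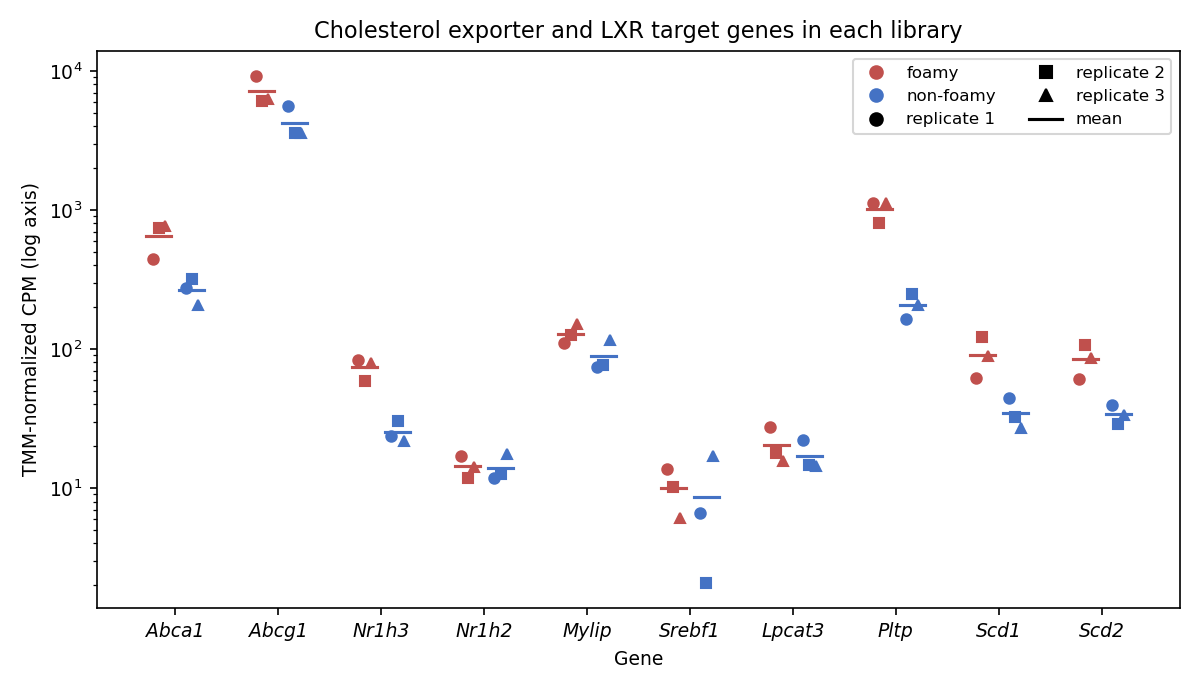
TMM-normalized CPM (log axis) of the 10 genes, with 1 symbol per library, colour for the population and a bar at the mean of 3. The foamy symbols lie wholly above the non-foamy ones for Abca1, Abcg1, Nr1h3, Pltp, Scd1 and Scd2 and overlap them for Nr1h2, Mylip, Srebf1 and Lpcat3.

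Abca1 (ENSMUSG00000015243), the exporter that loads lipid-poor apolipoprotein A-I, spans chromosome 4 from 53030787 to 53159895 on GRCm38, and its counts cover 50 merged exon blocks. It stood at 442, 748 and 761 CPM in foamy replicates 1 to 3 and at 274, 317 and 208 CPM in non-foamy replicates 1 to 3. Foamy replicate 1 was the low one of its group but still above every non-foamy library. The rise had a log2 fold change of 1.29 (SE 0.24, edgeR adjusted p = 0.011). It was not called without foamy replicate 2 (1.19) or foamy replicate 3 (1.17), nor when tested against a 1.5-fold change (edgeR adjusted p = 0.066).

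Abcg1 (ENSMUSG00000024030), the exporter to mature high-density lipoprotein, lies on chromosome 17 from 31057698 to 31115777. It gave 9191, 6078 and 6248 CPM in the foamy and 5581, 3595 and 3581 CPM in the non-foamy libraries. The groups did not overlap after TMM normalization, but non-foamy replicate 1 came close to the lower foamy libraries. Its reads made up 0.561% to 0.798% of all counts in the foamy and 0.37% to 0.659% in the non-foamy libraries. By this share the groups overlapped, with non-foamy replicate 1 above foamy replicates 2 (0.587%) and 3 (0.561%). The log2 fold change was 0.75 (SE 0.23) and did not pass the test (edgeR adjusted p = 0.0945). It passed without non-foamy replicate 1 (log2 fold change 1.00, edgeR adjusted p = 0.024), without the filter on low counts (0.88) and with DESeq2 (0.76, adjusted p = 0.022). In the other 13 of 16 alternative fits Abcg1 was not called. The log2 fold change was 0.54 without foamy replicate 1 (edgeR adjusted p = 0.318). With total counts as the only scaling it was 0.455 (edgeR adjusted p = 0.317).

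The exporters thus differed in level and in which libraries were high. Per kilobase of exon, Abcg1 averaged 1764 ± 430.5 CPM in the foamy and 1046 ± 283 CPM in the non-foamy libraries (SD, n = 3), while Abca1 averaged 62.8 ± 17.4 and 25.7 ± 5.30 CPM. By this measure Abcg1 ranked 36th of 11303 genes in the foamy and 52nd in the non-foamy libraries. Foamy replicate 1 had the most Abcg1 and the least Abca1 of its group. The log2 ratio of Abca1 to Abcg1 counts within a library was -4.38, -3.02 and -3.04 in the foamy and -4.35, -3.50 and -4.11 in the non-foamy libraries. These ratios overlapped, with a difference of 0.51 (exact two-sided permutation p = 0.40; 0.53 adjusted over 4 gene pairs), so a larger rise of Abca1 than of Abcg1 was not shown. That difference was 0.96 without foamy replicate 1, 0.28 without foamy replicate 2, 0.29 without foamy replicate 3 and 0.33 without non-foamy replicate 1. With 3 libraries against 3, the smallest p this test can give is 0.10.

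Genes with the most similar profile over the 6 libraries were found by the root mean square difference of centred log2 CPM, among 6000 protein-coding genes with a mean of at least 10 CPM. For Abca1 they were Poc1b (0.16), Vps52 (0.17) and Csf2rb2 (0.18). For Abcg1 they were Farsa (0.10), Trap1 (0.12) and Armt1 (0.13). This measure holds both the difference between populations and the spread within them.

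Of the receptor genes, Nr1h3 rose and Nr1h2 did not pass the test. Nr1h3 (ENSMUSG00000002108; chromosome 2, 91184061 to 91202834) encodes LXR alpha, the form rich in macrophages and liver. It stood at 83.8, 59.2 and 80.0 CPM in the foamy and at 23.8, 30.4 and 22.0 CPM in the non-foamy libraries. Every foamy value was well above every non-foamy one. The log2 fold change was 1.55 (SE 0.25, edgeR adjusted p = 0.0047), and the call held in all 16 alternative fits, with log2 fold changes from 1.27 to 1.70. Nr1h2 (ENSMUSG00000060601; chromosome 7, 44549616 to 44553951) encodes LXR beta, which most tissues express. It gave 16.9, 11.8 and 14.2 CPM in the foamy and 11.8, 12.6 and 17.7 CPM in the non-foamy libraries, so that the groups overlapped. Its log2 fold change was 0.03 (SE 0.35, edgeR adjusted p = 0.98), and it was below 0 without foamy replicate 1 (-0.10), non-foamy replicate 1 (-0.09) or non-foamy replicate 2 (-0.04).

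The ratio of Nr1h3 to Nr1h2 counts within a library does not depend on how libraries are scaled. It was 4.95, 5.01 and 5.62 in the foamy and 2.03, 2.41 and 1.24 in the non-foamy libraries. The ranges did not overlap, with a difference of 1.51 on the log2 scale (exact two-sided permutation p = 0.10, the smallest that 3 against 3 allows; 0.40 adjusted over the 4 pairs). Per kilobase, Nr1h3 averaged 29.6 ± 5.26 CPM and Nr1h2 4.26 ± 0.76 CPM in foamy libraries, and 10.1 ± 1.77 and 4.17 ± 0.96 CPM in the non-foamy libraries (SD, n = 3). Nr1h3 was therefore the more abundant receptor transcript per length in both populations.

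**Figure D2:**
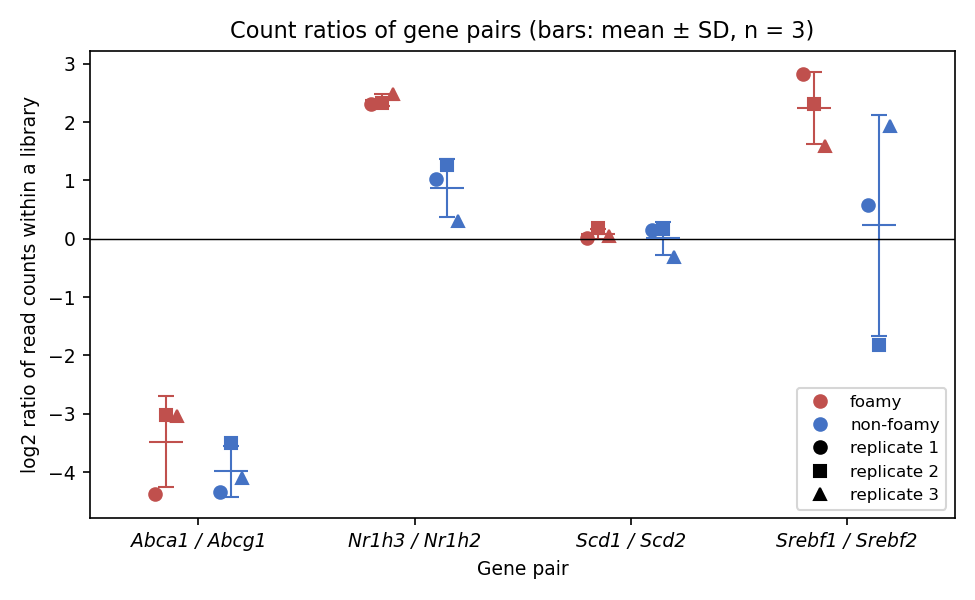
Log2 ratios of read counts within each library for 4 gene pairs, with 1 symbol per library and bars for the mean ± SD of 3. The ratio of Nr1h3 to Nr1h2 is apart between the populations, between 2.31 and 2.49 in the foamy and between 0.31 and 1.27 in the non-foamy libraries, while the other 3 pairs overlap.

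Pltp (ENSMUSG00000017754; chromosome 2, 164839518 to 164857711) encodes the phospholipid transfer protein, which moves phospholipid between lipoproteins. Of the 10 genes it had the highest log2 fold change, 2.30 (SE 0.22, edgeR adjusted p = 1.5e-04). Values were 1122, 800.3 and 1118 CPM in the foamy and 164, 248 and 206 CPM in the non-foamy libraries. The lowest foamy library had over 3 times the CPM of the highest non-foamy one. The call held in all 16 alternative fits, with log2 fold changes from 2.03 to 2.46. Its exons overlap those of Ctsa, a lysosomal protease gene on the opposite strand, by 495 of 2562 bases. Reads of these bases cannot be assigned to 1 of the genes, since the strand setting is not given in the sources used here.

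Scd1 and Scd2, neighbours on chromosome 19, encode stearoyl-CoA desaturases, which place the double bond in oleate and palmitoleate. Scd1 (ENSMUSG00000037071; 44394451 to 44407709) gave 61.9, 121 and 89.4 CPM in the foamy and 44.3, 32.7 and 27.1 CPM in the non-foamy libraries. Scd2 (ENSMUSG00000025203; 44293676 to 44306864) gave 61.0, 107 and 86.4 CPM in the foamy and 39.6, 29.0 and 33.7 CPM in the non-foamy libraries. Both genes were highest in foamy replicate 2 and lowest of their group in foamy replicate 1, and neither overlapped between populations. The log2 fold changes were 1.39 for Scd1 (SE 0.29, edgeR adjusted p = 0.019) and 1.31 for Scd2 (SE 0.26, edgeR adjusted p = 0.014).

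Within a library the counts of Scd1 and Scd2 were nearly equal. Their ratio was 1.01, 1.14 and 1.04 in the foamy and 1.12, 1.13 and 0.80 in the non-foamy libraries, a difference of 0.08 on the log2 scale (exact two-sided permutation p = 0.80), which was -0.08 without non-foamy replicate 3. These genes are similar in sequence, and their separate values are uncertain because the counting of reads that match both is not given in the sources used here. The other genes of the family had too few counts to be tested. Scd3 had 0 counts over the foamy and 6 over the non-foamy libraries, and Scd4 had 38 and 8.

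Neither desaturase call was stable. Scd1 missed the threshold when any 1 of these was left out: foamy replicate 2 (log2 fold change 1.14) or 3 (1.41), or non-foamy replicate 2 (1.35) or 3 (1.25). It was not called with total counts as the only scaling either (1.12). Scd2 missed it when foamy replicate 2 (1.12) or 3 (1.30) or non-foamy replicate 2 (1.21) was left out, and with that scaling (1.05). Markers of adipocytes, which are rich in Scd1, summed to 0.0475 to 0.167 CPM in the foamy and 0.197 to 0.596 CPM in the non-foamy libraries.

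The remaining 3 targets did not pass the test and overlapped between populations. Mylip (ENSMUSG00000038175; chromosome 13, 45389742 to 45412019) encodes IDOL, a ubiquitin ligase that sends lipoprotein receptors to degradation. It gave 111, 126 and 150.5 CPM in the foamy and 74.4, 76.7 and 116 CPM in the non-foamy libraries. Only non-foamy replicate 3 reached into the foamy range. The log2 fold change was 0.54 (SE 0.23, edgeR adjusted p = 0.24).

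Srebf1 (ENSMUSG00000020538; chromosome 11, 60199089 to 60222581) encodes SREBP-1a and SREBP-1c, factors for fatty acid synthesis genes, and gene counts do not tell these forms apart. It gave 13.8, 10.3 and 6.04 CPM in the foamy and 6.61, 2.09 and 17.1 CPM in the non-foamy libraries. The non-foamy libraries held both the lowest and the highest value of the 6. The log2 fold change was 0.22 (SE 0.66, edgeR adjusted p = 0.92) and changed sign without foamy replicate 1 (-0.08) or non-foamy replicate 2 (-0.24). It was 1.22 without non-foamy replicate 3.

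Lpcat3 (ENSMUSG00000004270; chromosome 6, 124663027 to 124704418) encodes the acyltransferase that places polyunsaturated chains into phospholipids. It gave 27.3, 17.8 and 15.7 CPM in the foamy and 22.0, 14.7 and 14.3 CPM in the non-foamy libraries. Replicate 1 was the highest in each group. The log2 fold change was 0.25 (SE 0.35, edgeR adjusted p = 0.78) and -0.01 without foamy replicate 1. Exons of Lpcat3 overlap the more highly counted Emg1 by 38 bases, those of Nr1h3 overlap Gm13783 by 34 bases and those of Srebf1 overlap Rai1 by 109 bases, so reads there are uncertain too.

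**Figure D3:**
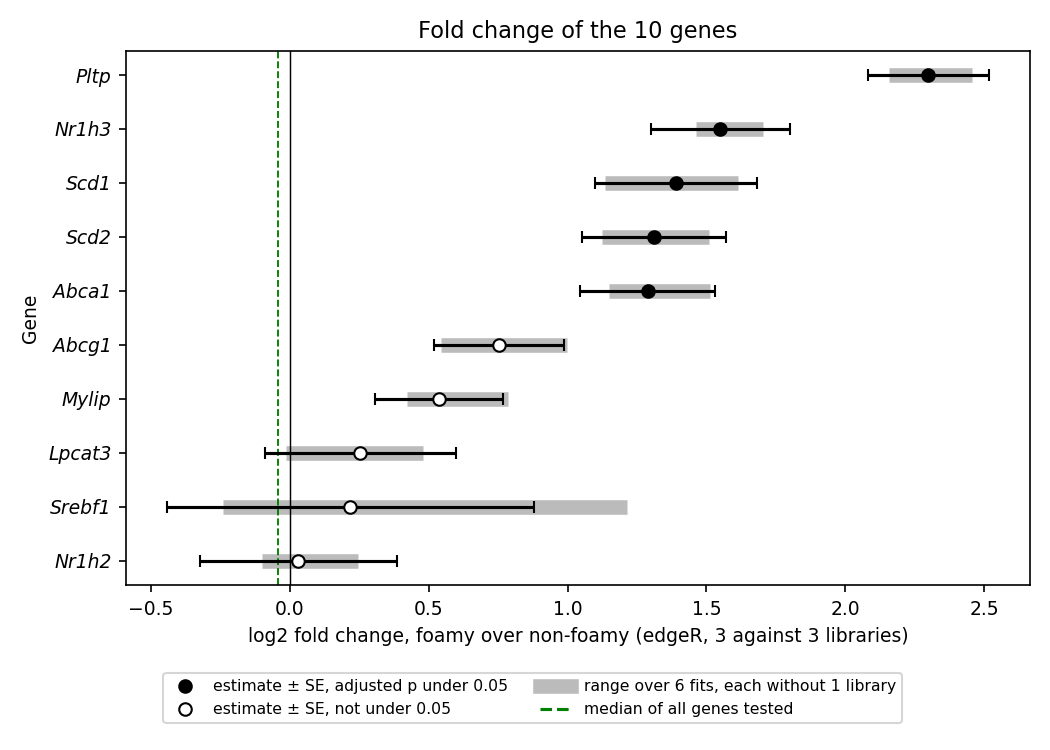
Log2 fold change, foamy over non-foamy, of the 10 genes, with points for the edgeR estimate, bars for its SE and grey bands for the range when each of the 6 libraries is left out. The 5 filled points, from 1.29 for Abca1 to 2.30 for Pltp, passed the test, and the band of Srebf1 runs from -0.24 to 1.22.

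Per kilobase of exon, the order in foamy libraries was Abcg1, Pltp, Abca1, Mylip, Nr1h3, Scd1, Scd2, Lpcat3, Nr1h2 and Srebf1. Neighbours whose 3 values overlapped were Abca1 and Mylip, Nr1h3 and Scd1, Scd1 and Scd2, and Lpcat3 and Nr1h2. In non-foamy libraries the order was the same except that Mylip (29.1 ± 7.58 CPM per kilobase; SD, n = 3) stood before Abca1 (25.7 ± 5.30), and these overlapped. There the values of Nr1h3 and Scd1, Scd1 and Scd2, Scd2 and Lpcat3, and Lpcat3 and Nr1h2 overlapped as well. Srebf1 was the lowest in both, at 1.78 ± 0.69 and 1.53 ± 1.37 CPM per kilobase.

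The other genes of the pathway were taken from lists by role, also chosen with earlier results of these data known. For all list counts below, the share over all genes tested by edgeR was 2.50% called higher and 2.90% called lower. Among 10 other genes known as LXR targets in macrophages, 5 rose and 0 fell, Abca7 being lower at an unadjusted p under 0.05 and 0 being called lower by DESeq2 or limma-voom. The median log2 fold change was 0.92, and Abca7 stands both here and among the transporters of the ABCA family. Cd5l, a secreted survival factor of macrophages, averaged 933 ± 303 CPM in the foamy and 107 ± 24.5 CPM in the non-foamy libraries (SD, n = 3; edgeR log2 fold change 3.13 ± 0.29 SE, adjusted p = 1.3e-04). Apoc1, an apolipoprotein gene next to the disrupted Apoe, averaged 29.9 ± 4.56 against 3.17 ± 2.16 CPM (log2 fold change 3.24). The log2 fold change was 1.33 for Lpl, which encodes lipoprotein lipase, and 1.37 for Mertk, a receptor for apoptotic cells. The fifth, Smpdl3a, was named after its values were seen and had a log2 fold change of 1.30. All 5 were called in each of the 16 alternative fits.

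The genes of RXR and of the coregulators of LXR were not called. Of 13 tested, edgeR, DESeq2 and limma-voom called 0 in either direction, and 1 was lower at an unadjusted p under 0.05 by edgeR. That gene was the coactivator gene Ncoa3, at 193 ± 15.9 against 306 ± 156 CPM (edgeR log2 fold change -0.66 ± 0.30 SE, adjusted p = 0.26). The median log2 fold change was 0.08, with 9 of 13 estimates above 0, or 2 of 13 with total counts as the only scaling.

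Of 6 tested genes that make or break down oxysterols and other sterol ligands of LXR, 1 rose and 1 fell. Ch25h, which encodes cholesterol 25-hydroxylase, stood at 21.5, 18.6 and 20.0 CPM in the foamy and at 51.2, 90.9 and 109 CPM in the non-foamy libraries. All foamy values were below all non-foamy ones, and the gene fell (edgeR log2 fold change -2.06 ± 0.30 SE, adjusted p = 0.0023), also in all 16 alternative fits. Cyp27a1, the sterol 27-hydroxylase gene, was lower in each foamy library, at 6.17, 5.52 and 3.94 against 10.9, 16.02 and 16.8 CPM, but missed the threshold (edgeR log2 fold change -1.48 ± 0.42 SE, adjusted p = 0.069). It was called lower by DESeq2 (adjusted p = 0.012) and by edgeR with total counts only (adjusted p = 0.032), so that DESeq2 called 1 of the 6 higher and 2 lower, and limma-voom 1 higher and 1 lower. Hsd3b7, an enzyme of oxysterol and bile acid metabolism, rose from 58.0 ± 3.54 CPM in non-foamy to 116 ± 26.2 CPM in foamy libraries (edgeR log2 fold change 1.00 ± 0.22 SE, adjusted p = 0.023). Leaving out foamy replicate 1 (1.02) or 3 (0.83) or non-foamy replicate 2 (0.96) ended its call, as did total counts as the only scaling (0.72).

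The list for fatty acid synthesis under SREBP-1 also holds Mlx, a transcription factor gene, and is not limited to known SREBP-1 targets. Of 9 tested genes in it, 1 rose and 0 fell, and 0 were lower at an unadjusted p under 0.05 or by DESeq2 or limma-voom. The 1 was Elovl1, a fatty acid elongase, at 300.02 ± 14.9 against 154 ± 26.1 CPM (edgeR log2 fold change 0.96 ± 0.19 SE, adjusted p = 0.012). It was not called without foamy replicate 3 (0.93) or with total counts only (0.68). Of 19 tested genes of sterol synthesis and uptake under SREBP-2, 0 rose and 1 fell, and by edgeR 0 were higher and 6 lower at an unadjusted p under 0.05. DESeq2 called 4 lower, among them Insig1, Insig2 and Cyp51, limma-voom called Insig1 lower, and both called 0 higher. Cyp51, a demethylase of lanosterol, gave 4.98, 2.45 and 6.42 CPM against 11.05, 17.5 and 13.3 CPM (edgeR log2 fold change -1.59 ± 0.48 SE, adjusted p = 0.087). Its groups did not overlap. The median log2 fold change was -0.57 and 16 of the 19 estimates were below 0, or 18 of 19 with total counts only and 13 of 19 with limma-voom. Among all 11303 genes tested by edgeR, 5967 estimates were below 0. Total counts only gave a median of -0.82, and the stricter filter on low counts gave -0.36. The gene that fell was Insig1, which retains the SREBP escort protein in the endoplasmic reticulum, at 35.0, 27.0 and 26.3 CPM in the foamy and 78.9, 71.8 and 83.4 CPM in the non-foamy libraries (edgeR log2 fold change -1.41 ± 0.23 SE, adjusted p = 0.0048). Its call held in all 16 alternative fits.

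The log2 ratio of Srebf1 to Srebf2, the SREBP-2 gene, was 2.82, 2.31 and 1.60 in the foamy and 0.57, -1.82 and 1.93 in the non-foamy libraries. The ranges overlapped, with a difference of 2.02 (exact two-sided permutation p = 0.20; 0.40 adjusted over the 4 pairs). It was 0.99 without non-foamy replicate 2, the library with the fewest Srebf1 counts.

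Of 13 tested genes that release cholesterol in the lysosome or store and move it, 6 rose and 0 fell, and by edgeR Gramd1a was lower at an unadjusted p under 0.05. The 6 were Lipa, Gramd1b, Npc2, Soat1, Lamp1 and Npc1. DESeq2 called 8 higher and limma-voom 6, and neither called any lower. Lipa, the lysosomal acid lipase, averaged 2447 ± 441 against 1101 ± 37.3 CPM (log2 fold change 1.15). Npc2, which carries cholesterol out of the lysosome, averaged 3080.1 ± 261 against 1383 ± 343 CPM (1.16). Soat1, which esterifies cholesterol, averaged 823 ± 145 against 413 ± 67.7 CPM (0.99), and Gramd1b, a sterol carrier between membranes, 40.2 ± 1.10 against 14.2 ± 2.10 CPM (1.5). Without foamy replicate 3, or with total counts only, the genes called were Lipa, Npc2 and Gramd1b. Soat1 was not called without foamy replicate 3 (0.86) or non-foamy replicate 2 (1.05). Lamp1 (1.01) lost its call in 7 of the 16 alternative fits, among them those leaving out foamy replicate 2 (0.80), foamy replicate 3 (1.02) and each of non-foamy replicates 1 and 2 (0.99 for both). Npc1 (1.18) lost it in 8, among them those leaving out foamy replicates 1 (1.22), 2 (1.18) and 3 (1.16) in turn, and non-foamy replicates 1 (1.20) and 3 (0.94) in turn.

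Among other transporters of the same families, listed together with Scarb1, the estimates went both ways. Of 10 tested genes, all of them ABCA or ABCG genes except Scarb1, 1 rose and 0 fell. Abca5, Abca7 and Abca9 were lower at an unadjusted p under 0.05 by edgeR. DESeq2 called Abcg3 higher and Abca9 lower, and limma-voom 1 higher and 0 lower. The median log2 fold change was -0.48, or 0.04 without non-foamy replicate 1, where Abca9 fell. Abca9 stood at 17.3, 14.9 and 20.4 CPM against 23.8, 47.3 and 57.6 CPM (edgeR log2 fold change -1.29 ± 0.34 SE, adjusted p = 0.053). Abcg3 rose from 7.96, 6.55 and 4.13 CPM in non-foamy to 21.6, 38.6 and 33.8 CPM in foamy libraries (edgeR log2 fold change 2.34 ± 0.38 SE, adjusted p = 0.0048). The lysophospholipid acyltransferase relatives of Lpcat3 had 0 of 5 called by edgeR, DESeq2 or limma-voom and 0 at an unadjusted p under 0.05 by edgeR. The lowest p was that of Lpcat1 (edgeR log2 fold change -0.49 ± 0.35 SE, adjusted p = 0.52). Of 3 tested PPAR genes, Pparg, Ppard and the coactivator gene Ppargc1b, 0 were called by the same 3 tools and 0 had an unadjusted p under 0.05, and Ppard had the lowest p (log2 fold change -0.31, SE 0.63).

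**Figure D4:**
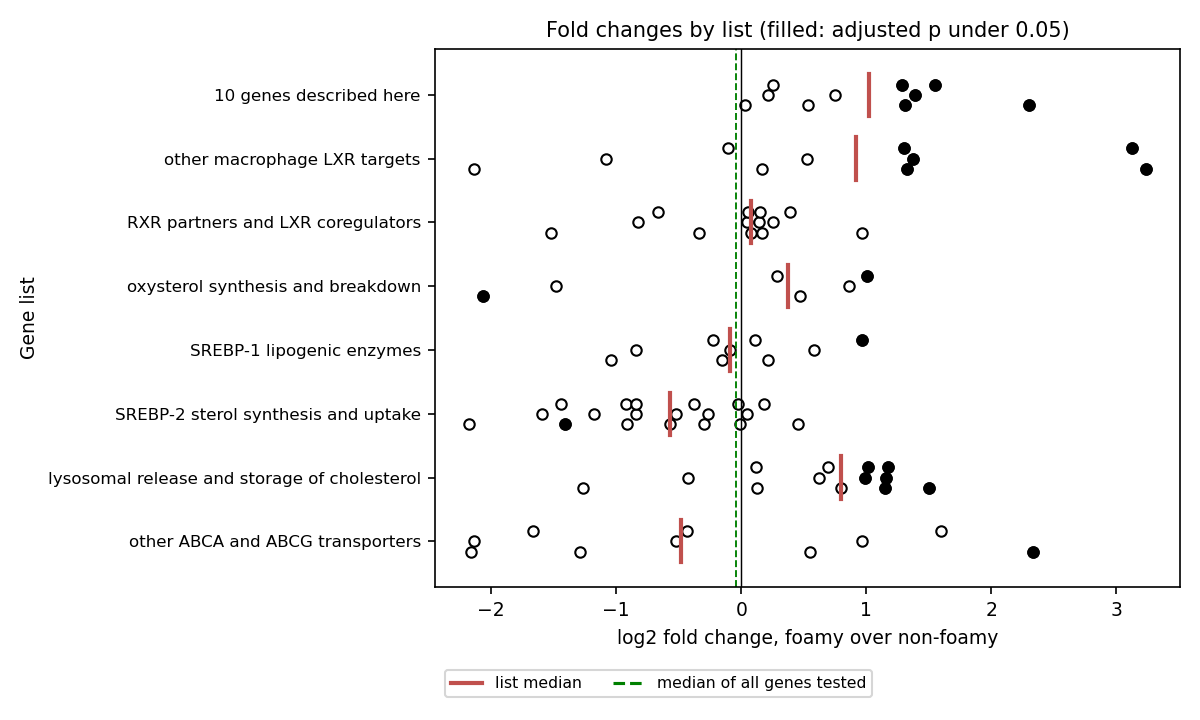
Log2 fold change, foamy over non-foamy, of each tested gene in 8 lists, with red bars for list medians and a dashed line for the median of all genes tested. Called genes (filled) lie on the right for the 10 genes described, the other LXR targets and the lysosomal and storage genes, and the sterol synthesis genes lie mostly to the left, with a median of -0.57.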

How the data were processed

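RNA of sorted foamy and non-foamy macrophages was read as single reads of 50 bases after 12 amplification cycles, per the labels' protocols. Alignment and counting tools named in the submitters' processing notes are STAR (2.0.4b) with Subread and its featureCounts (1.4.5), on GRCm38. Whether counting used strand or reads with several matches is not given in the sources used here. The deposited counts are whole reads per gene. The deposited CPM are these counts scaled to the total of counts in genes, and the deposited RPKM are that CPM per kilobase, by the file headers and a check on every gene; only counts were tested. Symbols were matched for 97.26% of genes through GENCODE M21.

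The test was edgeR 4.0.16 in R 4.3.3 (filterByExpr, TMM, robust quasi-likelihood F-test, Benjamini-Hochberg over all 11303 genes tested, threshold 0.05), without a replicate block. Of all genes tested, 5.41% were called, and 25.7% had groups that did not overlap. The SE is the log2 fold change over the square root of F. The biological coefficient of variation was 0.505, and chi-square per degree of freedom between libraries of 1 group ran from 50.74 to 143.4, so no library repeats another. Counts within a library were compared by exact permutation tests with scipy 1.17.1. The procedure was tested on simulated data.

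The 10 genes and all lists were chosen with earlier results of these data known. Named were the 10 genes, in each list the called genes or up to 4 with the smallest p, or 1 where none was called, and the 3 genes nearest in profile to each exporter, after adding 0.5 CPM. Cyp27a1, Cyp51, Abca9, marker genes and other genes named beside a count were chosen after their values were seen, as was the second promoter motif. Alternatives were RLE and upper-quartile factors, total counts only, no filter, a minimum of 10 counts in 3 libraries with a mean of at least 5 CPM, DESeq2 1.42.0, limma-voom (limma 3.58.1), the replicate number as a block, a test against a 1.5-fold change, mitochondrial and ribosomal protein genes left out, and each library left out.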

Additional observations from a re-analysis of the deposited data

How the results depend on the processing

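Of 416 combinations of 26 named genes and alternatives, 357 kept direction and side of the threshold, 47 lost the call, 3 gained it and 9 changed sign. The sign changes were Nr1h2 with total counts only (-0.24) and without foamy replicate 1 (-0.10), non-foamy replicate 1 (-0.09) or 2 (-0.04); Srebf1 with total counts only (-0.029) and without foamy replicate 1 (-0.08) or non-foamy replicate 2 (-0.24); and Lpcat3 with total counts only (-0.043) and without foamy replicate 1. With 1 library left out, Nr1h2 ran from -0.101 to 0.246, Srebf1 from -0.241 to 1.215 and Lpcat3 from -0.015 to 0.479. The difference in the Scd1 to Scd2 ratio ran from -0.081 to 0.164 with 1 library left out. Of the 10 genes, 3 were called with total counts only, 2 against a 1.5-fold change and 2 to 6 with 1 library left out. Over all genes, 1173 were called by DESeq2, 276 against a 1.5-fold change, 271 to 579 with 1 library left out, and 779 (165 higher, 614 lower) with total counts only. Of the 88 tested pathway genes that are not among the 10, 16 were called, beside 5.41% of all genes tested. Called were 10 against a 1.5-fold change and 11 to 16 with 1 library left out. The 16 with total counts only were 9 higher and 7 lower, against 14 and 2 in the main fit. The cause of these differences was not tested. Fits with a library left out also have a smaller sample.

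No pairing by replicate number was seen: correlations of same-numbered deviations were -0.122, -0.0334 and -0.0475, and no library correlated best with its own number. Whether same-numbered libraries share mice is not in the labels and cannot be told from these correlations. With the replicate number as a block, 3 of the 10 genes and 391 genes in all were called, and Scd1 and Scd2 were not (edgeR adjusted p = 0.0504 for both). The pair ratios compared within replicate numbers gave exact permutation p-values from 0.25, the smallest possible, to 0.75. With 3 libraries a group, Srebf1, at 2.09 to 17.1 CPM, carries the widest SE of the 10 genes.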

Other observations

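The foamy libraries did not rank alike for all genes that were higher in foamy cells. Foamy replicate 1 held the lowest value of its group for Abca1, Scd1 and Scd2, and also for Cd5l (586 CPM against 1063 and 1149), Mertk (83.4 against 139 and 113) and Lpl (1314 against 1854 and 1739). The same library held the highest value of its group for Abcg1 and Nr1h3, and for Apoc1 (34.8 CPM against 25.7 and 29.2). For Pltp, foamy replicates 1 and 3 were nearly level (1122 and 1118 CPM), and by share of all counts replicate 3 was the higher (0.0974% and 0.1%). These are orders of 3 libraries, with no test.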
